A study of Mus musculus with 10 samples.

Results

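Zic1 ganglion cells are retinal ganglion cells (RGCs) that hold mRNA of Zic1, and they were chosen by their Zic1 counts in single cell RNA-seq. A cell was selected on at least 2 unique molecular identifiers (UMIs, each of which marks a captured RNA molecule) of Zic1, on at least 1 Zic1 UMI per 10000 UMIs of the cell, and on fewer than 1 per 10000 of each of Opn4, Eomes, Foxp2, Tbr1, Neurod2 and Tfap2d. These limits kept 83 of 2871 distinct cells, 82 of them from uninjured and 1 from injured retinas. The study profiled RGCs of wild-type 129S1/SvImJ mice of both sexes at 12 weeks of age (P84), either uninjured or 2 weeks after optic nerve crush (ONC), an injury to the RGC axons behind the eye. RGCs were enriched by Thy1 immunopanning, in which cells bind a plate through an antibody to a surface protein of RGCs, from 10 pooled retinas per batch, and 6000 cells per batch went into droplet capture. The 10 libraries comprised 6 uninjured and 4 injured ones, and which mice or which sex a library held is not given. The methods describe amacrine cell depletion, the v2 kit and a HiSeq sequencer, whereas the labels describe macrophage depletion alone, the v3 kit and a NovaSeq sequencer. Total UMIs per library ran from 2839693 to 23180399 in uninjured and from 4698799 to 8860536 in injured RGCs.

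RGCs are the output neurons of the retina, and they comprise many types that differ in the visual features they respond to, in dendrite shape, in brain targets and in the transcription factors they keep in the adult. Zic1 encodes a zinc finger transcription factor of the Zic family, best known from the development of the neural plate, the cerebellum and the eye. Opn4, Eomes, Foxp2, Tbr1, Neurod2 and Tfap2d mark other RGC types, among them the intrinsically photosensitive RGCs (Opn4 and Eomes) and the F-type RGCs (Foxp2).

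Several libraries stood apart. Injured 3 and 4 shared 421 barcodes, whereas any other pair of libraries shared at most 1, so these were treated as a single capture. The 421 repeated barcodes were taken from injured 3 alone, and the 50 remaining cells of injured 4 were added to it as injured 3/4 (577 cells). This left 2871 of the 3292 deposited barcodes in 9 samples, 6 uninjured and 3 injured. Xist, which is transcribed from the inactive X chromosome of female cells, was found in 62.1% and 67.4% of cells in injured 1 and 2 and in at most 0.569% of cells in every other library. UMIs of the mCherry reporter were in 7.99%, 15.02%, 85.96% and 84.3% of cells in injured 1 to 4 and in 0 uninjured cells. Injured 3/4 alone was like the uninjured libraries in Xist, and mCherry was in most of its cells, so no injured sample matched the uninjured ones in both. Median UMIs per cell were 27816 in uninjured and 14079 in injured cells. Uninjured 1 and 2 held 98 and 103 cells, and the other uninjured libraries held 201 to 651.

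Zic1 counts separated the Zic1 cells from nearly all other cells, which follows from the rule and is given as a description. The 83 cells held 2 to 43 Zic1 UMIs (median 8), or 1.17 to 7.05 per 10000 UMIs (median 3.43), at 12866 to 102316 UMIs per cell. Among the 2788 other cells, 2771 had 0 Zic1 UMIs, 15 had 1, 1 had 2 and 1 had 3. Just inside the limits, 5 Zic1 cells held 2 or 3 Zic1 UMIs, and 74 held at least 5. No cell was lost to the limits on the other 6 genes. Of 726 uninjured cells past the limit of at least 1 of those 6 genes, 2 (0.275%, exact 95% interval 0.0334 to 0.992) had any Zic1 UMI, at a median of 29005 UMIs per cell against 25316 in Zic1 cells. Few cells lay near the limits, and Zic1 UMIs were rare in cells of the other marker genes at a similar depth.

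**Figure D1:**
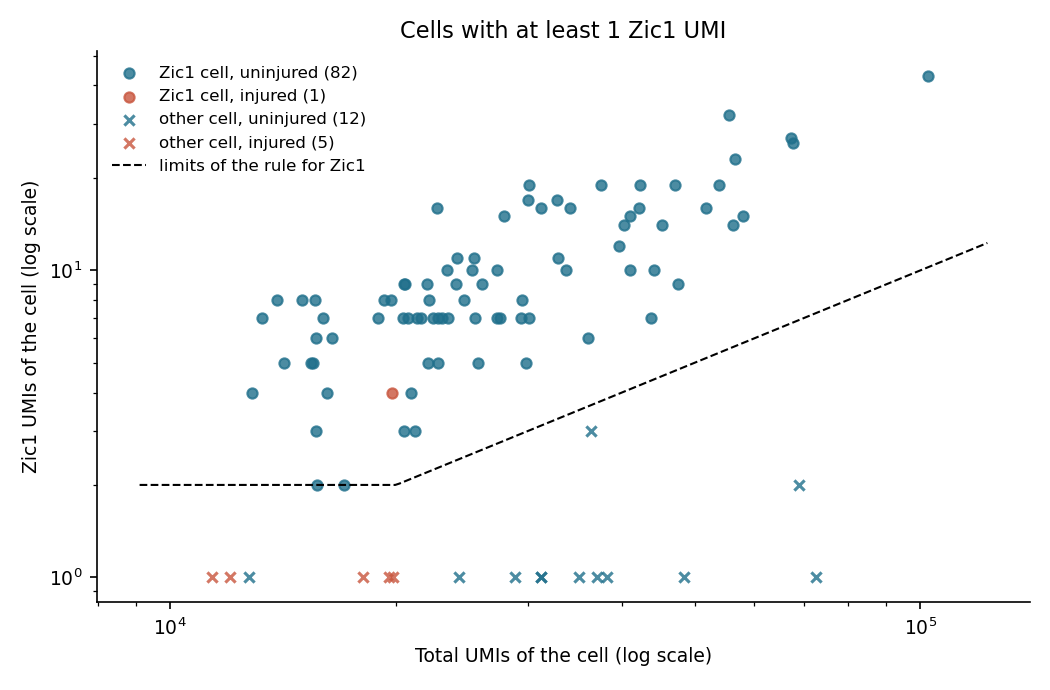
Zic1 UMIs against total UMIs of each cell with at least 1 Zic1 UMI, both on log scales, with uninjured cells in blue and injured cells in red. Circles are the 83 Zic1 cells, crosses the 17 other cells, and the dashed line is the rule's limit for Zic1, near which few cells lie.

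Zic1 cells were 4.87% of uninjured cells (82 of 1683, exact 95% interval 3.89 to 6.01) and 0.0842% of injured cells (1 of 1188, interval 0.00213 to 0.468). In uninjured 1 to 6 they were 3 of 98 (3.06%), 0 of 103 (which allows a share of up to 2.91%), 21 of 363 (5.79%), 25 of 651 (3.84%), 18 of 267 (6.74%) and 15 of 201 (7.46%) cells. Their share was 4.48% ± 2.76 (SD, n = 6 libraries). In injured 1 and 2 they were 0 of 338 and 0 of 273 cells, which allows shares of up to 0.888% and 1.10%, and in injured 3/4 1 of 577 (0.173%). Every uninjured library but uninjured 2 lay above every injured sample. When each cell was thinned to 10000 UMIs and cells below that depth were left out (54 uninjured, 287 injured), 74 of 1629 uninjured (4.54%) and 0 of 901 injured cells (upper end of the interval 0.409%) met the rule. As the rule reads Zic1 itself, these shares carry no test, and fewer Zic1 cells and less Zic1 RNA per cell cannot be told apart from them. The shares allowed where 0 cells were found are limits of 3 cells. Exact 95% intervals there reach 3.52%, 1.09% and 1.34% in uninjured 2, injured 1 and injured 2. Intervals and limits cover counting error alone.

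Zic1 RNA summed over all cells of a library followed the same order. Zic1 stood at 15.8, 0, 17.9, 16.2, 22.0 and 23.3 CPM (counts scaled to the same total in each library) in uninjured 1 to 6 and at 0.337, 0.213 and 0.646 CPM in injured 1, 2 and 3/4. Uninjured 2 was the only uninjured library without a Zic1 UMI, and the injured samples held 9 Zic1 UMIs between them against 882 in uninjured ones. Cells chosen in the same way by the other genes were also fewer after ONC for Neurod2 (6.77% of uninjured and 0.0842% of injured cells), Tbr1 (2.61% and 0.758%), Eomes (5.59% and 2.86%), Foxp2 (19.4% and 10.5%) and Tfap2d (13.4% and 6.14%), but not for Opn4 (3.33% and 3.62%). Shares for these other genes were not read in thinned cells, and injured cells were shallower (median 14079 against 27816 UMIs). Whether the share of Zic1 cells fell more than these was not tested.

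**Figure D2:**
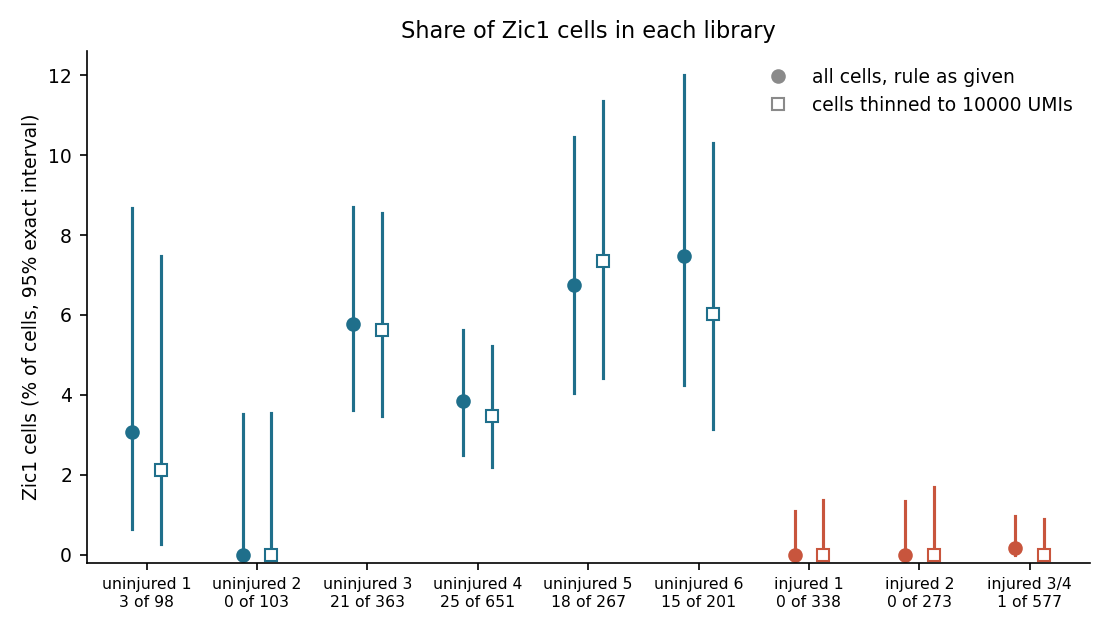
Zic1 cells as a percentage of the cells of each library, with exact 95% intervals, for 6 uninjured (blue) and 3 injured (red) samples. Filled circles use all cells and open squares cells thinned to 10000 UMIs, and the injured samples sit at 0 to 0.173%.

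The label of RGCs was checked against marker genes in the 79 Zic1 cells of uninjured 3 to 6, the libraries with at least 5 Zic1 cells. Rbpms, Slc17a6, Sncg and Tubb3, which mark RGCs, each had UMIs in 79 of 79 Zic1 cells and in 1403 of 1403 other cells. The authors kept RGCs before deposit, so UMIs of these genes are no separate check. The 16 pan-RGC markers were all present. They summed to 10579 to 14735 CPM in Zic1 cells and 10429 to 13079 CPM in the other cells of the same libraries. Pooled over libraries, Sncg was the most abundant in Zic1 cells (2428 CPM). By library, Nefl led in uninjured 3 and 4 (1898 and 1958 CPM) and Sncg in uninjured 5 and 6 (3764 and 4276 CPM). Cone markers were at 0 for 7 of 7 genes. Rod markers summed to at most 8.55 CPM and endothelial and pericyte markers to at most 3.18 CPM. Microglia markers summed to 8.55 to 19.1 CPM (mean 13.5, against 13.3 in the other cells). P2ry12 was the most abundant when pooled over libraries, whereas Cx3cr1 led in uninjured 3 and 6 (9.54 and 5.70 CPM). C1qa, C1qb, C1qc, Tyrobp, Cd68 and Lyz2 were at 0. UMIs of amacrine genes in some Zic1 cells are described with the other retinal classes.

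Depth of Zic1 cells lay on both sides of that of the rest. Median UMIs per cell in uninjured 3, 4, 5 and 6 were 27492, 34092, 20497 and 22123 in Zic1 cells and 32091, 34452, 20363 and 21685 in the other cells. Zic1 cells were lower in uninjured 3 and 4 and higher in uninjured 5 and 6. The mean difference was -1096 UMIs (exact two-sided sign-flip permutation test over 4 libraries, p = 0.75, where the smallest possible p is 0.125). The mean difference in genes per cell was -62.1 (exact permutation p = 0.375), and mitochondrial UMIs were 5.46% against 5.10% (exact permutation p = 0.375). With 4 libraries this test cannot reach 0.05.

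To find what else sets Zic1 cells apart, UMIs were summed over the Zic1 cells and over the other cells of each of uninjured 3 to 6 (79 against 1403 cells) and tested with the library as a block. Of 11799 genes tested, 1409 (11.9%) passed an adjusted p of 0.05 (edgeR with Benjamini-Hochberg adjustment), 659 (5.59%) of them higher and 750 (6.36%) lower in Zic1 cells. Of the 11799, 1654 genes reached the filter's limit in every sum of other cells but not of Zic1 cells (346 of the 750 lower genes), and 95 the reverse (39 of the 659 higher genes). Such genes passed only through the cell set where they are high, so for those named the levels are given as a description, without a p, and counts over lists are no test of the list. Zic1 cells held more RNA of Penk, Ndst4, Sgcd, Pcdh17, Plch1 and Isl2, by 4 times or more, and nearly lacked Shisa9, Elfn1, Prlr, Kcnh1, Ajap1, Tafa1, Cntnap5b and Nell1. The counts of genes were smaller with DESeq2 (933), when at least 10 counts were asked of every sum of Zic1 cells (732), with cells thinned to 8000 UMIs (652), without the library block (409), and when cells with UMIs of 3 markers of another class were dropped (158), which left 6 and 8 Zic1 cells against 15 and 28 other cells in uninjured 3 and 5, and without uninjured 4 the higher genes numbered 429. Higher genes were 46.8% of those called, and from 28.1% (no filter on low counts) to 57.8% (limma-voom) in other settings, and levels in this comparison are CPM scaled by TMM factors.

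The 12 genes with the largest rise among those past the threshold at a mean log2 CPM of at least 5 were led by Penk, which encodes proenkephalin, the precursor of the enkephalin opioid peptides. In uninjured 3, 4, 5 and 6, Penk stood at 291, 378, 578 and 547 CPM in Zic1 cells and at 48.6, 56.8, 53.1 and 79.2 CPM in the other cells. It was higher in Zic1 cells of every library, 7.30-fold (log2 fold change 2.87, SE 0.11, adjusted p = 2.8e-19), and the groups did not overlap. At 10000 UMIs per cell, 96.2% of Zic1 cells and 12.6% of other cells had a Penk UMI. The part of captured RNA in the UMIs of other cells was not tested. Ptn, which encodes the secreted heparin-binding growth factor pleiotrophin, stood at 389, 406, 496 and 529 CPM in Zic1 cells and 138, 142, 136 and 127 CPM in the other cells, a log2 fold change of 1.71, SE 0.10, adjusted p = 1.1e-16. Both secreted factors were lowest in uninjured 3 and higher in uninjured 5 and 6 within Zic1 cells, and neither was near the level of the other cells in any library.

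A pair of sarcoglycan genes rose together. Sarcoglycans are membrane proteins of the dystrophin complex, which links the cytoskeleton to the extracellular matrix. Sgcd (delta-sarcoglycan) stood at 807, 652, 367 and 349 CPM in Zic1 cells of uninjured 3, 4, 5 and 6 and at 124, 134, 90.8 and 85.7 CPM in the other cells, 4.94-fold higher (log2 2.30, SE 0.10, adjusted p = 9.9e-19). Sgcz (zeta-sarcoglycan) reached 1672, 1868, 1245 and 875 CPM against 315, 272, 303 and 327 CPM (log2 2.20, SE 0.27, adjusted p = 0.0194). Both were higher in Zic1 cells of each library, and in Zic1 cells both were higher in uninjured 3 and 4 than in uninjured 5 and 6. The call of Sgcz was lost without uninjured 3 (log2 2.12, adjusted p = 0.107, edgeR) and in cells with at least 20000 UMIs (log2 1.98, adjusted p = 0.0527, edgeR). Ndst4, which encodes an enzyme that places sulfate groups on heparan sulfate chains, stood at 396, 351, 323 and 248 CPM against 66.3, 52.4, 50.4 and 72.4 CPM (log2 2.50, SE 0.12, adjusted p = 1.9e-15), with no overlap between the cell sets.

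Of the other rises, Pcdh17, a protocadherin that mediates adhesion between like cells, stood at 331, 417, 247 and 299.7 CPM in Zic1 cells and 67.2, 71.6, 72.7 and 64.9 CPM in the other cells (log2 2.26, SE 0.11, adjusted p = 1.0e-18). Sdk2, an immunoglobulin-family protein of synaptic layers in the retina, stood at 171, 182, 52.9 and 73.4 CPM against 49.4, 49.9, 32.2 and 30.3 CPM (log2 1.62, SE 0.14). Pcdh17 was high in all 4 libraries, whereas Sdk2 in Zic1 cells of uninjured 5 and 6 came closer to the other cells of uninjured 3 and 4. The call of Sdk2 was lost without cells with 3 markers of another class (log2 1.05, adjusted p = 0.184, edgeR). Plch1, a phospholipase C that is driven by calcium, stood at 239, 212, 120.4 and 122 CPM against 43.2, 46.5, 31.04 and 27.1 CPM (log2 2.24, SE 0.12). Ryr3, a calcium release channel of the endoplasmic reticulum, stood at 185, 151, 99.8 and 76.5 CPM against 68.7, 40.2, 23.5 and 22.8 CPM (log2 1.75, SE 0.13). Gpr176, a G protein-coupled receptor whose ligand is not known, stood at 111, 122, 67.5 and 94.8 CPM against 30.9, 28.4, 31.8 and 27.4 CPM (log2 1.82, SE 0.15). These 3 were higher in Zic1 cells within every library.

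Transcription factors among the 12 were Isl2 and Bnc2. Isl2, a LIM homeodomain factor, stood at 98.1, 98.2, 164 and 193 CPM in Zic1 cells and 24.2, 20.97, 45.97 and 50.6 CPM in the other cells, 4.06-fold higher (log2 2.02, SE 0.13, adjusted p = 3.6e-15). In both cell sets Isl2 was higher in uninjured 5 and 6 than in uninjured 3 and 4, and in each library Zic1 cells were above the rest. Bnc2, a zinc finger protein of the basonuclin family, stood at 193, 213, 79.3 and 94.8 CPM against 56.7, 47.7, 26.4 and 42.9 CPM (log2 1.80, SE 0.13, adjusted p = 1.8e-13). When cells with UMIs of 3 markers of another class were left out, Bnc2 had a log2 fold change of -0.29 in the 2 remaining libraries (adjusted p = 0.948, edgeR).

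**Figure D3:**
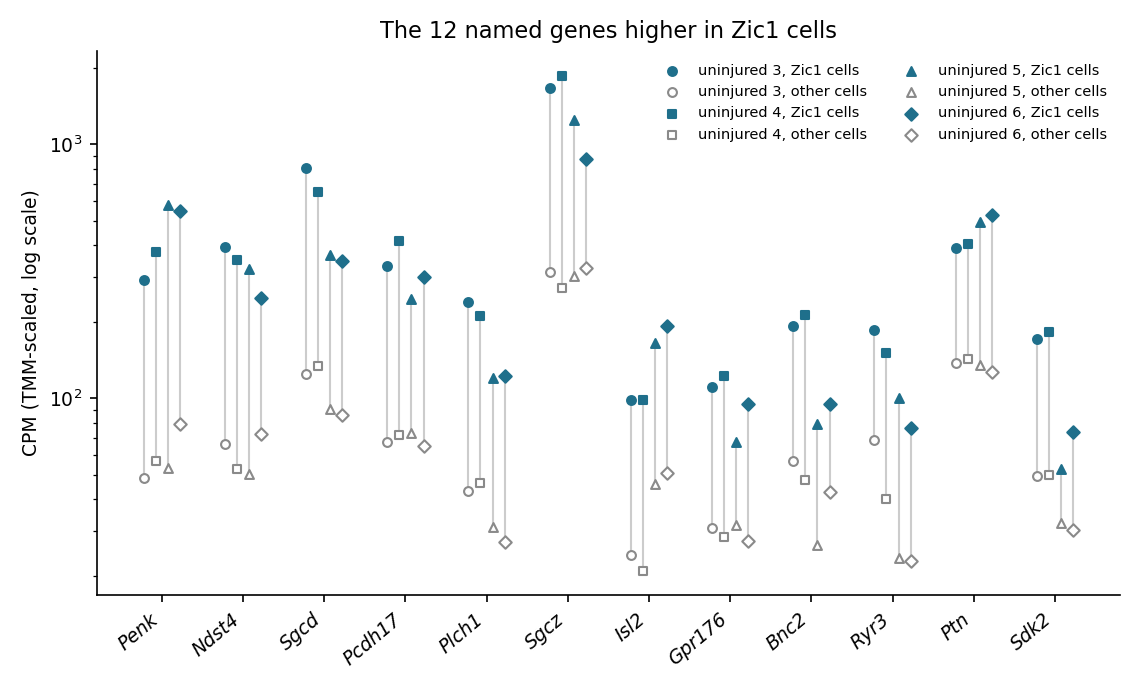
CPM, scaled by TMM factors and on a log scale, of the 12 named genes that were higher in Zic1 cells, in uninjured 3 to 6. Filled symbols are sums over Zic1 cells, open symbols sums over the other cells of the same library, joined by a line, and the filled symbol is the higher one in each pair.

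The 8 genes with the largest fall were at or near 0 in Zic1 cells. Shisa9, an auxiliary protein of AMPA-type glutamate receptors, had 0 UMIs in 79 Zic1 cells and 30.5 to 79.9 CPM in the other cells, at least 49.6-fold lower against a floor of 3 counts over all Zic1 cells. Elfn1, a synaptic protein that binds metabotropic glutamate receptors across the synapse, had 0 UMIs against 45.97 to 64.04 CPM, at least 47.5-fold lower. Prlr, the prolactin receptor, had 0 UMIs against 19.98 to 62.9 CPM, at least 44.1-fold lower. Kcnh1, a voltage-gated potassium channel, and Ajap1, a protein of adherens junctions, also had 0 UMIs in every library, at least 36.2-fold and 34.4-fold lower. These 5 genes had 18.5% to 33.7% of other cells with a UMI at 10000 UMIs per cell and 0 of 79 Zic1 cells.

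The other 3 of the 8 had 1 to 4 UMIs in Zic1 cells. Tafa1, which encodes a small secreted protein of neurons, had 1 UMI in Zic1 cells, in uninjured 4, against 231, 255, 149 and 131 CPM in the other cells of uninjured 3, 4, 5 and 6. Its pooled level was 547-fold lower in Zic1 cells (exact 95% counting interval 98.1 to 21597). In contrast, 47.2% of other cells had a UMI of Tafa1 when thinned to 10000 UMIs. Cntnap5b, a neurexin-like adhesion protein, had 1 UMI, in uninjured 3, against 43.8 to 64.8 CPM, 147-fold lower (interval 26.4 to 5819.6). With the 3 Zic1 cells of uninjured 1 added, a setting chosen after seeing the data, it was not past the threshold. Its log2 fold change was then -4.23, against -7.01 without those 3 cells. Nell1, a secreted protein with EGF-like repeats, had 4 UMIs against 129.6 to 242 CPM, 133-fold lower (interval 51.8 to 487). All 8 genes passed the filter through the other cells alone, so these levels are a description.

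The genes whose counts were most like those of Zic1 across 2530 cells thinned to 10000 UMIs were Cfap206 (Spearman rho 0.595), 9330185C12Rik (0.430), Penk (0.382), Gm17501 (0.367) and Ndst4 (0.335), of 15325 genes compared. These values describe cells that share libraries and depth. Cfap206 encodes a protein of motile cilia and sperm tails, and 9330185C12Rik and Gm17501 are long non-coding RNAs. Cfap206 stood at 74.4, 91.1, 91.02 and 64.2 CPM in Zic1 cells of uninjured 3, 4, 5 and 6 and at 1.09, 0.886, 1.36 and 0.727 CPM in the other cells. It was near absent outside the Zic1 cells of every library. 9330185C12Rik stood at 39.6, 32.4, 32.3 and 15.3 CPM against 0.545, 0.127, 2.72 and 0 CPM. Gm17501 stood at 25.3, 48.6, 52.9 and 88.7 CPM against 1.32, 1.43, 4.85 and 4.84 CPM. In thinned cells, at least 2 of these 5 genes had a UMI in 81 of 82 uninjured Zic1 cells (98.8%), in 26 of 1547 other uninjured cells (1.68%) and in 12 of 900 other injured cells (1.33%), and at least 3 in 65, 1 and 0 cells. The 5 genes were chosen in the same cells by their likeness to Zic1, which the rule reads, so these levels and shares are a description.

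Of the 5 Zic family genes, Zic1 was not tested because the rule reads it, and of the other 4 only Zic4 had enough counts to pass the filter. Zic4, a zinc finger factor beside Zic1, stood at 9.50, 12.1, 20.6 and 18.4 CPM in Zic1 cells of uninjured 3, 4, 5 and 6 and at 0.0779, 0, 0 and 0 CPM in the other cells, from 31 UMIs against 1. It passed the filter only through its counts in Zic1 cells, so these levels are a description. It had a UMI in 27.8% of Zic1 cells, so its low counts left most of them without a UMI. On chromosome 9 of mm39, the annotation places Zic1 (ENSMUSG00000032368.15) at 91240111 to 91247863, read in reverse, and Zic4 (ENSMUSG00000036972.16) at 91244149 to 91271402, read forward. The genes overlap by 3715 bases, and whether strand was used in counting is not given in the sources used here, so Zic4 counts are uncertain. The letters CCTGCTG, on either strand, which lie within the binding motif known for Zic proteins, were in 8.06% of 21562 windows of 250 bases before the start of a gene's canonical transcript, which can lie within the annotated gene, and in 0 of the 15 such windows read here (the 12 rises, Cfap206, Zic1 and Zic4), which says only that these letters are not in those windows.

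Of the 61 RGC subtype transcription factors tested, of 69 listed, 13 were higher and 29 lower in Zic1 cells (14 of the 29 passed through the other cells alone; 5.59% and 6.36% over all genes), with a median log2 fold change of -0.30 beside 0.04 over all genes tested. Besides Isl2 and Bnc2, Runx1t1, a transcriptional corepressor, was higher at 1092 ± 81.5 against 439 ± 15.5 CPM (SD, n = 4 libraries; log2 1.31, SE 0.08, adjusted p = 9.2e-16). Satb1, a chromatin organizer found in some direction-selective RGCs, was higher at 236 ± 51.9 against 98.1 ± 9.35 CPM (log2 1.29, SE 0.10). Both were higher in Zic1 cells of each library. Irx2, Irx4, Six3, Zfhx4, Klf7, Bcl11a, Zfhx3, Pou4f1 and Foxp4 were the other members that rose, and those that fell included Pou4f2. As a description, mean levels in Zic1 and other cells were 3.84 and 23.0 CPM for Irx3 and 8.20 and 40.1 CPM for Irx5. They were 1.04 and 49.2 CPM for Irx6, 0 and 24.1 CPM for Tbx20, and 0.253 and 18.1 CPM for Onecut1.

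Of 55 subtype marker genes listed, 38 passed the filter, 23 of them through the other cells alone and Fes through Zic1 cells alone. Besides Fes, 2 (Penk and Sdk2) were called higher, and of 26 called lower 21 had passed through the other cells alone. Over all genes, 5.59% were higher and 6.36% lower. Because of those 21 genes, no direction is read from this list. Pvalb, the calcium buffer parvalbumin, stood at 2.34 ± 3.02 against 225 ± 96.9 CPM (SD, n = 4), from 7 UMIs in Zic1 cells. Tac1, the precursor of substance P, stood at 1.01 ± 2.02 against 148 ± 57.4 CPM, from 4 UMIs in Zic1 cells. Cartpt, a neuropeptide precursor typical of direction-selective RGCs, was lower but still present at 148 ± 49.9 against 780.2 ± 181 CPM (log2 -2.42, SE 0.10). The call of Cartpt was lost without cells with 3 markers of another class (log2 -0.17, adjusted p = 0.961, edgeR). The Zic1 cells thus held few UMIs of Pvalb and Tac1.

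Neuropeptides and growth factors differed in both directions, with 4 higher (Penk, Fgf1, Fgf9 and Adcyap1) and 12 lower of 21 tested (6 of the 12 through the other cells alone; 5.59% and 6.36% over all genes, median -0.80). Scg2, a granin of dense-core vesicles, had the smallest p of that list, at 60.1, 56.7, 38.2 and 27.5 CPM in Zic1 cells and 613, 618, 492 and 449.6 CPM in the other cells of uninjured 3, 4, 5 and 6 (log2 -3.52, SE 0.13, adjusted p = 3.1e-22). It was lower in Zic1 cells of every library without overlap. Igf1, a growth factor, had 3 UMIs in Zic1 cells against 4071 in the others, 71.9-fold lower by pooled level (interval 24.6 to 349).

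Of 74 axon guidance and adhesion genes tested, 16 were higher and 33 lower (16 of the 33 through the other cells alone; 5.59% and 6.36% over all genes, median -0.42). Besides Pcdh17, Pcdh7, another protocadherin, was higher at 1490.3 ± 446 against 663 ± 89.2 CPM (SD, n = 4; log2 1.14, SE 0.09, adjusted p = 2.3e-13). Cdh11, a classical cadherin, was lower at 6.26 ± 6.21 against 108 ± 18.2 CPM. Pcdh19, a protocadherin, was lower at 6.64 ± 2.73 against 68.2 ± 15.2 CPM. Of the protocadherins in this list, 2 were higher (Pcdh17 and Pcdh7) and 5 lower (Pcdh19, Pcdh10, Pcdh9, Pcdh20 and Pcdh11x). Mean Pcdh20 was 0.649 CPM in Zic1 cells and 11.9 CPM in the other cells, given as a description. The call of Pcdh7 was lost when the 3 Zic1 cells of uninjured 1 were added (log2 1.39, adjusted p = 0.0640, edgeR). It was also lost without cells with 3 markers of another class (log2 0.28, adjusted p = 0.851, edgeR). Epha3, Epha7, Dcc, Plxna2 and Plxnc1, receptors for ephrins, netrins and semaphorins, were also among the genes that rose, and Epha5, Epha6, Epha8, Nrp1, Nrp2, Unc5a and Unc5c among those that fell.

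Ion channels differed likewise. Of 45 potassium channel genes tested, 7 were higher and 16 lower (Kcnmb2 through Zic1 cells alone and 3 of the 16 through the other cells alone; 5.59% and 6.36% over all genes, median -0.22). Kcnd2 and Kcnd3 encode the pore of A-type potassium channels, which inactivate rapidly. Kcnd2 was higher at 1934 ± 666 against 700.1 ± 113 CPM (SD, n = 4; log2 1.43, SE 0.09, adjusted p = 9.7e-15), and Kcnd3 was lower at 52.2 ± 32.8 against 172 ± 61.99 CPM (log2 -1.66, SE 0.14, adjusted p = 6.3e-12). These related genes thus differed in opposite directions in all 4 libraries, although the call of Kcnd3 was lost when the 3 Zic1 cells of uninjured 1 were added (log2 -1.23, adjusted p = 0.270, edgeR), and that of Kcnd2 without cells with 3 markers of another class (log2 0.46, adjusted p = 0.474, edgeR). Kcnh7, of the same family as Kcnh1, was higher at 1092 ± 316 against 564 ± 81.2 CPM (log2 0.94, SE 0.09). Of 29 sodium and calcium channel genes tested, 5 were higher and 5 lower (2 of the 5 lower through the other cells alone; 5.59% and 6.36% over all genes, median 0.07), with Fgf12 (log2 0.65, SE 0.08) and Cacna2d3 (log2 0.73, SE 0.11) up and Cacnb2 (log2 -0.85, SE 0.13) and Fgf14 (log2 -0.58, SE 0.10) down. Fgf12 and Fgf14 are intracellular proteins that bind sodium channels, and Cacna2d3 and Cacnb2 are accessory calcium channel subunits. Without cells with 3 markers of another class, these 4 were not called either (log2 0.36, -0.49, 0.37 and -0.88). The call of Cacna2d3 was also lost with cells thinned to 8000 UMIs (log2 0.55, adjusted p = 0.0701, edgeR). That of Cacnb2 was also lost when the 3 Zic1 cells of uninjured 1 were added (log2 -0.62, adjusted p = 0.172, edgeR).

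Of 42 receptor genes for glutamate, GABA, glycine and acetylcholine tested, 8 were higher and 10 lower (7 of the 10 through the other cells alone; 5.59% and 6.36% over all genes, median -0.05). Grin2a, an NMDA receptor subunit, was higher at 583 ± 234 against 224 ± 64.5 CPM (SD, n = 4; log2 1.37, SE 0.09, adjusted p = 7.6e-15). Grin3a, another NMDA receptor subunit, was lower at 3.67 ± 2.12 against 70.1 ± 22.9 CPM. Gabrb1, a GABA-A receptor subunit, was lower at 8.15 ± 4.80 against 145 ± 28.2 CPM, and Grm8, a presynaptic metabotropic glutamate receptor, was higher at 379 ± 166 against 176 ± 47.2 CPM (log2 1.10, SE 0.10). Zic1 cells thus held more Grin2a and less Grin3a than the other RGCs in each library, and the call of Grm8 was lost when the 3 Zic1 cells of uninjured 1 were added (log2 1.32, adjusted p = 0.0580, edgeR).

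Of 16 pan-RGC markers tested, 4 were higher and 4 lower (5.59% and 6.36% over all genes, median -0.01). Nrn1 (log2 0.63, SE 0.08), Thy1 (0.54, SE 0.08), Sncg (0.41, SE 0.08) and Pou4f1 (0.43, SE 0.10) were higher. Pou4f2, Pou4f3, Isl1 and Atp1b1 were lower, and with cells thinned to 8000 UMIs 4 markers were higher and 0 lower. Thy1, the surface protein used for immunopanning, stood at 658, 758, 789.8 and 814 CPM in Zic1 cells and 450.1, 466, 559 and 618 CPM in the other cells of uninjured 3, 4, 5 and 6. The call of Pou4f1, a POU-domain transcription factor, was lost without uninjured 4 (log2 0.27, adjusted p = 0.150, edgeR), and its log2 fold change was -0.41 without cells with 3 markers of another class, where Nrn1 (0.50), Thy1 (0.45) and Sncg (0.34) were not called either.

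Of 27 axon injury response genes tested in these uninjured cells, 6 were higher and 5 lower (3 of the 5 lower through the other cells alone; 5.59% and 6.36% over all genes, median -0.14). Gap43, a growth cone protein, was higher at 487 ± 48.7 against 341 ± 31.3 CPM (SD, n = 4; log2 0.51, SE 0.09, adjusted p = 2.9e-05). Tubb2b, a beta-tubulin, was also higher (log2 0.90, SE 0.11), whereas Chl1, an adhesion molecule (log2 -2.19, SE 0.26), and Crip2, a LIM-domain protein, were lower. Gap43 had a log2 fold change of -0.27 without cells with 3 markers of another class, and Tubb2b (0.83) was not called there. Of 16 immediate early genes tested, 2 were higher, Ier3 (log2 0.72, SE 0.13) and Jund (log2 0.46, SE 0.09), and 1 lower, Fos (log2 -0.60, SE 0.15), with a median of 0.07 (5.59% and 6.36% over all genes). The value of Ier3 was -0.03 without cells with 3 markers of another class, where Jund (0.50) and Fos (-0.44) were not called, and the call of Fos was lost without uninjured 5 (log2 -0.45, adjusted p = 0.122, edgeR).

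The study centres on the Vo domain of the V-ATPase, the proton pump that acidifies lysosomes, so its genes were read in Zic1 cells too. Atp6v0c, which encodes the proteolipid subunit of the proton-conducting ring, stood at 1825, 1567, 2957 and 2955 CPM in Zic1 cells and 1542, 1540.5, 2543 and 2688 CPM in the other cells of uninjured 3, 4, 5 and 6. It was higher in Zic1 cells by value in each library, with a log2 fold change of 0.15, SE 0.07, adjusted p = 0.225. Rnasek (0.19, SE 0.08, adjusted p = 0.180), Atp6v0e (0.13, SE 0.20, adjusted p = 0.792) and Atp6v0e2 (0.09, SE 0.10, adjusted p = 0.705) likewise did not pass. Of 10 Vo genes tested, 0 passed with edgeR, 3 had an unadjusted p below 0.05 (Atp6v0b, Atp6v0c and Rnasek), DESeq2 called 0, edgeR with upper-quartile factors 0 and limma-voom 2, Atp6v0b (log2 0.20, adjusted p = 0.0265) and Atp6v0c (log2 0.15, adjusted p = 0.0391). Over all genes tested, 11.9% passed with edgeR, 5.59% higher and 6.36% lower. A difference in Vo genes between Zic1 cells and other RGCs was not detected by edgeR, and the median log2 fold change of the 10 was 0.12.

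**Figure D4:**
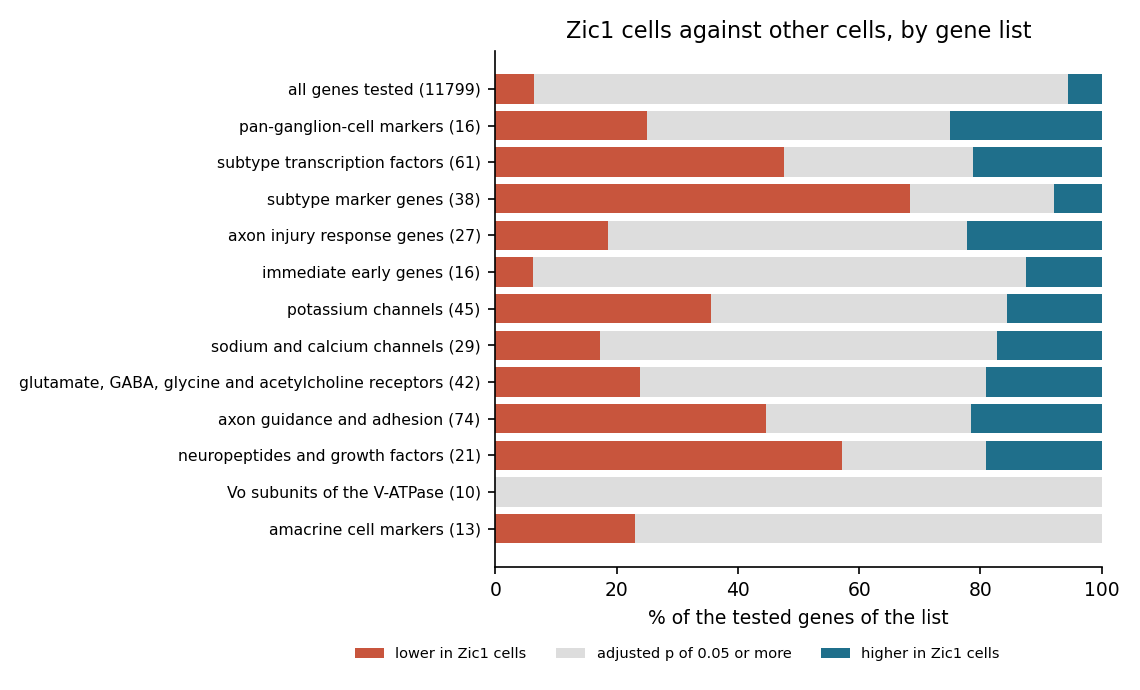
For each gene list, the percentage of its tested genes that were lower (red), not past the threshold (grey) or higher (blue) in Zic1 cells than in other cells, with the number tested in brackets. The first bar gives all 11799 genes tested, and lower genes include those that passed the filter through the other cells alone.

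Markers of other retinal classes were read in the same sums. UMIs of at least 3 markers of another class were in 61 of 79 Zic1 cells (77.2%) and in 1315 of 1403 other cells (93.7%). The 22 amacrine markers summed to 372 to 828 CPM in Zic1 cells and 792 to 1401 CPM in the other cells, with Pax6, which RGCs also express, the most abundant (372 CPM, pooled, in Zic1 cells), and Chat, Slc18a3, Th, Dlx1 and Dlx2 at 0. Of 13 amacrine markers tested, 0 were higher with edgeR and 3 were lower, among them Tcf4 (log2 -1.61, SE 0.14) and Gad2, which passed the filter through the other cells alone (5.59% and 6.36% over all genes). The call of Tcf4 was lost without cells with 3 markers of another class (log2 -1.26, adjusted p = 0.271, edgeR). UMIs of at least 2 of 8 defining amacrine markers were in 17 of 79 Zic1 cells (21.5%), 12 of them in uninjured 4 and 0 in uninjured 5, and in 478 of 1403 other cells (34.1%). The part of free or captured amacrine RNA in the gene differences was not tested beyond leaving these cells out, a setting chosen after seeing the data, in which 1308 genes were called.

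Muller glia markers summed to 148 to 192 CPM in Zic1 cells, led by Clu, with Sox9, Crym, Kcnj10 and Cd9 at 0, and 2 of 5 tested, Dkk3 (through the other cells alone) and Apoe, were lower. Over all genes, 5.59% were higher and 6.36% lower. Apoe was lower in 2 of 4 libraries only, and its call was lost without uninjured 4 (log2 -1.08, adjusted p = 0.329, edgeR). Bipolar markers summed to 242 to 364 CPM, led by Prkca, with Vsx1, Otx2, Grm6 and Trpm1 at 0. Of 5 tested, Prkca was higher and Grik1 and Isl1 were lower. The call of Prkca was lost without uninjured 4, 5 or 6 (log2 0.40, 0.36 and 0.26) and with cells thinned to 8000 UMIs (log2 0.17, adjusted p = 0.800, edgeR). It was also lost with DESeq2 (log2 0.38), without a filter on low counts (0.26) and in cells with at least 20000 UMIs (0.30), among other settings. It was kept with limma-voom, with upper-quartile factors and without uninjured 3. Horizontal cell markers were lower for 3 of 5 tested (Onecut1 and Onecut2, both through the other cells alone, and Calb1, whose call was lost when the 3 Zic1 cells of uninjured 1 were added, log2 -2.24, adjusted p = 0.177, edgeR), and astrocyte markers for 2 of 2 (Igf1 and S100b, again through the other cells alone). The call of S100b was lost with DESeq2 (log2 -1.40), with limma-voom (-1.12) and without uninjured 4, 5 or 6 (-1.46, -1.33 and -1.35), but not without uninjured 3. Microglia markers P2ry12 and Cx3cr1 did not pass with edgeR, DESeq2 or limma-voom (0 of 2 each, 0 at an unadjusted p below 0.05). Rod, cone and endothelial markers had too few counts to be tested.

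The planned comparison of injured with uninjured Zic1 cells could not be made, because the injured samples held 1 Zic1 cell and no injured sample reached the minimum of 5. For the same reason the difference in injury response between Zic1 cells and other RGCs was not tested. After this was seen, the genes named for Zic1 cells were read in whole libraries, 6 uninjured against 3 injured, over all cells. Of 14211 genes tested, 6292 (44.3%) passed, 3053 (21.5%) higher and 3239 (22.8%) lower after ONC (edgeR, Benjamini-Hochberg). Of the 12 genes high in Zic1 cells, 8 fell after ONC, 0 rose and 4 did not pass (median -1.11, beside -0.02 over all genes tested). In such sums, fewer Zic1 cells and less RNA per cell cannot be told apart.

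Cfap206, near absent outside Zic1 cells, ran from 0.560 to 6.96 CPM (median 4.58) in uninjured libraries and stood at 0.351, 0.225 and 0.439 CPM in injured 1, 2 and 3/4 (from 249 UMIs against 7), given as a description because it was chosen by its likeness to Zic1. Ndst4 was named by its rise in uninjured libraries, but it is also among the 5 genes most like Zic1. That likeness was read over uninjured and injured cells together. Ndst4 ran from 52.9 to 85.97 CPM (median 66.6) and stood at 12.8, 16.4 and 18.3 CPM (log2 -2.12, SE 0.20, adjusted p = 6.4e-06). Neither Cfap206 nor Ndst4 overlapped between conditions. Isl2 ran from 12.1 to 61.5 CPM (median 26.2) and stood at 4.39, 8.33 and 7.46 CPM (log2 -2.28, SE 0.53, adjusted p = 0.00417), again without overlap. With the Zic1 cells left out, mean Ndst4 was 56.2 CPM in uninjured and 15.997 CPM in injured samples, and Isl2 27.5 and 6.71 CPM. In this setting, also chosen after seeing the data, 7 of the 12 genes fell and 1 rose, and the falls of Ndst4 and Isl2 were thus present in cells other than Zic1 cells, where Isl2 overlapped between conditions (lowest uninjured 8.27 CPM, highest injured 8.36 CPM).

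Penk took another course. It ran from 28.5 to 114 CPM (median 78.5) in uninjured libraries and stood at 73.7, 101 and 65.6 CPM in injured samples (log2 0.05, SE 0.33, adjusted p = 0.909), so the conditions overlapped. Without Zic1 cells its mean was 57.1 CPM in uninjured and 79.6 CPM in injured samples. Pcdh17 (log2 0.42), Plch1 (0.26) and Sdk2 (0.12) did not pass either, and Pcdh17 passed, as a rise, once the Zic1 cells were left out (log2 0.65, adjusted p = 0.0429, edgeR). Sgcd (log2 -1.38, SE 0.19), Gpr176 (-1.50, SE 0.21) and Ptn (-0.85, SE 0.14) fell without overlap, and Sgcz (-1.67, SE 0.43), Ryr3 (-1.71, SE 0.53) and Bnc2 (-0.71, SE 0.27) fell with overlapping values. The call of Bnc2 was lost without uninjured 1, 3, 4 or 6 (log2 -0.73, -0.55, -0.62 and -0.70) and without injured 1, 2 or 3/4 (-0.75, -0.58 and -0.80), and that of Ryr3 without injured 2 or 3/4 (-1.54 and -1.38). In libraries 1 to 3 of each condition without a replicate block, Sgcz (log2 -1.30), Bnc2 (-0.75) and Ryr3 (-1.89) were not called. With the block, Ryr3 (-1.69) was not called either. Without a filter on low counts, the calls of Ryr3 (-1.71) and Bnc2 (-0.70) were lost too.

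Of the 8 genes at or near 0 in Zic1 cells, 4 fell after ONC in whole libraries (Elfn1, Prlr, Ajap1 and Nell1) and 2 rose (Shisa9 and Tafa1), with Kcnh1 and Cntnap5b not past the threshold (22.8% lower and 21.5% higher over all genes). Shisa9 ran from 28.7 to 77.1 CPM (median 39.1) in uninjured libraries and stood at 178, 159.8 and 126 CPM in injured 1, 2 and 3/4 (log2 1.72, SE 0.27, adjusted p = 3.3e-04). Prlr ran from 18.9 to 61.4 CPM (median 38.5) and stood at 0.527, 1.35 and 2.96 CPM (log2 -4.52, SE 0.55, adjusted p = 4.3e-05).

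**Figure D5:**
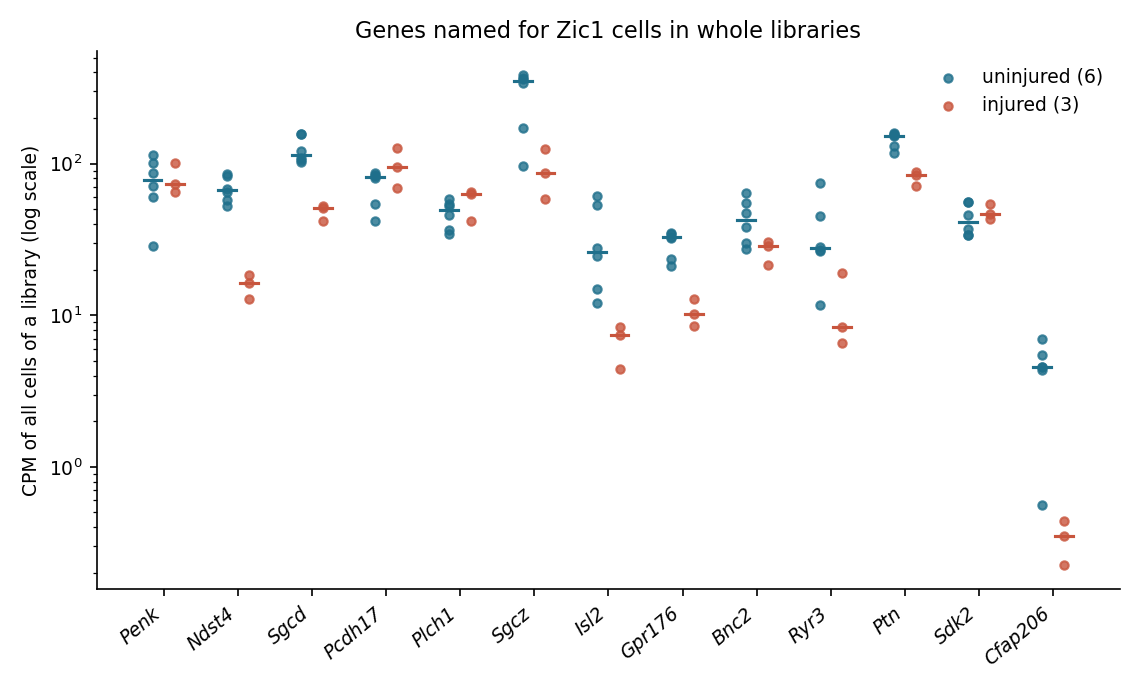
CPM, scaled by TMM factors and on a log scale, of the 12 genes named as higher in Zic1 cells and of Cfap206, summed over all cells of each of 6 uninjured (blue) and 3 injured (red) samples, with a bar at each median. Penk overlaps between conditions, whereas Ndst4, Isl2 and Cfap206 are lower in each injured sample.

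The single injured Zic1 cell came from injured 3/4 and held 19764 UMIs, with 4 UMIs of Zic1 and 1 of Zic4. Its barcode was also in injured 4, where 15378 UMIs with 2 of Zic1 met the rule too. It held 27 UMIs of Penk, where the mean of uninjured Zic1 cells would give 7.92 at its depth. Pcdh17 had 4 UMIs (6.82 at the uninjured mean), Isl2 2 (2.36), and of the RGC markers Rbpms 5 (13.4) and Slc17a6 19 (8.03). Ndst4, Sgcd and Sgcz had 0 UMIs, where uninjured means would give 6.69, 11.8 and 30.7. The injury-induced transcription factor Atf3 had 25 UMIs, the peptidase gene Ecel1 16, the neuropeptide gene Gal 10 and mCherry 82, where uninjured means would give at most 0.289. The cell also held UMIs of at least 2 of the 8 defining amacrine markers, but not of 3 markers of another class. A single cell allows no comparison, and these counts are a description. Another 5 injured cells held 1 Zic1 UMI each and did not meet the rule.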

How the data were processed

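Reads had been aligned by the authors to mm39 with Cell Ranger (version 7.0.1 in the submitters' processing notes, another version in the methods). The authors deposited raw UMI counts of 34254 genes in cells that they had selected as RGCs, and these were not normalized. The paper's count of uninjured RGCs equals the 1683 uninjured cells used here. Its count of injured RGCs equals neither the number of deposited injured barcodes nor the 1188 distinct injured cells, and the reason is not given. Whether separate animals stand behind each library is not given. For Zic1 cells against other cells, p-values measure how the difference within a library varies over libraries. For whole libraries they measure the spread between libraries. Either spread may be technical. Doublets were not called again, because the methods state a limit on UMIs per cell for this purpose.

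The members and the gene lists were chosen with earlier results of these data known. Selection, counting and sums per library used pandas 2.3.3, scipy 1.17.1 and numpy 2.4.6 under Python 3.11.15, and figures used matplotlib 3.10.9. The test was that of edgeR 4.0.16 under R 4.3.3 (filterByExpr given the groups, TMM factors, robust quasi-likelihood fit, Benjamini-Hochberg adjustment at 0.05). The plan named filterByExpr without saying whether it takes the groups or the design matrix, and the groups were kept when the counts under both were known. DESeq2 1.42.0 and limma 3.58.1 (limma-voom) were alternatives, and the procedure was tested on simulated data first. A library entered with at least 5 Zic1 cells. Zic1 and the 6 other genes of the rule were not tested. The SE of a log2 fold change is its size divided by the square root of F. Intervals are exact binomial or Poisson ones at 95%, and floors are 3 counts.

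Genes were named by a rule: Zic1 and the 6 genes; the 12 largest rises (of 398) and 8 largest falls (of 402) past the threshold at a mean log2 CPM of at least 5 and the same direction in every library; up to 4 members of each list by smallest p; the Zic family and Vo genes tested; and the 5 genes most like Zic1. The whole-library comparison and the binding motif were chosen after seeing the data. Gene positions are from the GENCODE annotation of mm39 (GRCm39).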

Additional observations from a re-analysis of the deposited data

Results flagged for a closer look

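In 44 groups of 4 or 6 libraries, 3 held a library far from the others, and chance flags about 1 in 20 groups. Zic1 over all cells of uninjured libraries was 0 CPM in uninjured 2, against 15.8 CPM in the nearest library, and uninjured 2 also held 0 Zic1 cells of 103. Tafa1 in Zic1 cells was 1.01 CPM in uninjured 4, from 1 UMI, and 0 in the other libraries. Cntnap5b in Zic1 cells was 1.58 CPM in uninjured 3, also from 1 UMI, and 0 in the other libraries. Values that rest on 1 UMI are at the limit of what these depths can show, and the causes were not tested.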

How the results depend on the processing

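For Zic1 cells against other cells, 1409 genes were called (659 higher, 750 lower). Other settings moved these counts by over 1.5 times: DESeq2 933 (407 higher), at least 10 counts in every sum of Zic1 cells 732 (385 and 347), cells thinned to 8000 UMIs 652 (245 and 407), no library block 409 (120 and 289), and cells with 3 markers of another class left out, which kept 2 libraries, 158 (64 and 94). Without a filter on low counts 432 genes were higher. The cause was not tested, beside fewer genes, UMIs, libraries or the dropped block where the setting itself removes them. Leaving out each library gave 1085 to 1299 genes (429 to 509 higher, 653 to 790 lower), the fewest without uninjured 4. Chosen after seeing the data, filterByExpr given the design matrix called 1526 of 12642 genes (591 higher, 935 lower), of which 1313 were among the 1409, adding the 3 Zic1 cells of uninjured 1 gave 1040, cells with 2 defining amacrine markers left out 1308 and similar libraries summed 1391.

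For the 20 named rises and falls, 402 of 407 values over 21 settings kept their direction and side of the threshold, 4 lost the call and 1 reversed. The named falls passed the filter through the other cells alone, so their values in this count are a description. They are no test of whether those calls are stable. Reversed values, each without cells with 3 markers of another class, were Bnc2 -0.29, Pou4f1 -0.41, Gap43 -0.27 and Ier3 -0.03 (log2). Over all 80 genes tested by name, 74 of 1604 values lost and 2 gained a call, 22 of the 74 without the library block. The 80 also include genes that passed the filter only through the cell set where they are high, again as a description. Prkca, Apoe and S100b lost theirs most often, each in several settings.

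The mean difference in median UMIs per cell was -785 under the stricter Zic1 limits of 4 UMIs and 2 per 10000. Mean shares of Zic1 cells after thinning were 4.10% in uninjured and 0% in injured samples.

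The whole-library comparison and all its settings were chosen after seeing the data. It called 6292 genes, and 5028 to 6450 without each sample in turn (2533 to 3130 higher, 2495 to 3320 lower). With similar libraries summed 2144 genes were lower, from fewer samples. Libraries 1 to 3 with their number as a replicate block gave 6352 genes and without it 6633. Same-numbered libraries did not deviate together (correlations 0.0145, -0.0377 and -0.0196), and none correlated best with its own number, so the numbers do not pair them. Of 403 values of 23 genes, 18 lost and 1 gained a call, 12 of them Bnc2.

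The tests of injured against uninjured Zic1 cells and of their difference in injury response were not run under any setting, nor were injured libraries alone. Injured and uninjured Zic1 cells could not be compared in pairs either. The injured samples held 1 Zic1 cell, and library numbers do not pair the conditions. Depth limits these results: 79 cells in 4 libraries, with low-count genes such as Zic4 resting on 31 UMIs, and a count of 0 in an injured library still allows a share of Zic1 cells near 1%. No injured sample matched the uninjured ones in both Xist and mCherry, and uninjured 1 and 2 add 3 Zic1 cells.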
